A study of Homo sapiens with 6 samples.

Results

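PAX3 and PAX7 are a pair of related human genes whose protein products mark the border of the neural plate in the embryo, and 10 of the 3126 β-catenin peaks of the series were assigned to them. The peaks were chosen by the gene name the authors gave each peak, at any distance from the gene's transcription start site (TSS). PAX3 had 7 of them and PAX7 had 3. The CHIR+SB list held 6 of its 1813 peaks at these genes, the CHIR list 4 of 1053 and the RPMI list 0 of 260. Because the genes were picked with these lists known, and the peaks are the authors' own calls, their number and height are given as a description.

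The cells were SA121, a human embryonic stem cell line grown in DEF-CS medium, so every value comes from 1 line. All were in RPMI-1640 medium for 6 h before fixation, with CHIR99021 and SB431542 together (CHIR+SB), with CHIR99021 alone (CHIR) or with no inhibitor (RPMI, labelled mock). CHIR99021 blocks the kinase GSK3 and so stabilises β-catenin, and SB431542 inhibits the receptor kinases that pass on activin, Nodal and TGFβ signals. Chromatin was immunoprecipitated with an antibody to β-catenin or with goat IgG as the control, and sequenced (ChIP-seq), with 1 library of each kind per condition, 6 in all. Each library was made from pooled DNA of parallel immunoprecipitations, so no condition had a replicate and differences between conditions carry no p-value. Within their peaks the lists held 39022 β-catenin reads in CHIR+SB, 39408 in CHIR and 6272 in RPMI, beside 12664, 4362 and 1294 IgG reads. If the authors scaled to a common depth, their factors put the β-catenin library at 1.14 (CHIR+SB) and 1.67 (CHIR) times the RPMI depth and the IgG library at 1.75 and 0.976 times, so raw reads of different conditions are not directly comparable. The doses in the labels are left out because their unit could not be checked.

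PAX3 and PAX7 encode transcription factors with a paired domain and a homeodomain. In vertebrate embryos they are expressed at the neural plate border, in the dorsal neural tube, in neural crest and in muscle progenitors, and Wnt signals are among the cues that induce the border. In the Wnt pathway, stabilised β-catenin enters the nucleus and is brought to DNA by TCF/LEF factors, which recognise short sequences with a CTTTG core. Peak lists hold no expression level, so neither the identity of the cells nor the activity of PAX3 and PAX7 was checked here.

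No peak was listed within 1 kb of the start of either gene. Over the whole lists 14.5% of CHIR+SB peaks and 26.6% of CHIR peaks lay that close to a TSS. With only 10 peaks, whether the absence is particular to these genes cannot be told. The closest of the 10 lay 8.02 kb from the PAX3 TSS, and all were downstream of the TSS of their gene. The sequences around the starts are shown for reference, from 250 bases before to 50 after the RefSeq start. They are in GRCh38.p14 and read 5′ to 3′ along the gene. The PAX3 window is chr2:222298949-222299248 on the minus strand and the PAX7 window chr1:18630596-18630895 on the plus strand. The capital marks the first transcribed base.
PAX3 start: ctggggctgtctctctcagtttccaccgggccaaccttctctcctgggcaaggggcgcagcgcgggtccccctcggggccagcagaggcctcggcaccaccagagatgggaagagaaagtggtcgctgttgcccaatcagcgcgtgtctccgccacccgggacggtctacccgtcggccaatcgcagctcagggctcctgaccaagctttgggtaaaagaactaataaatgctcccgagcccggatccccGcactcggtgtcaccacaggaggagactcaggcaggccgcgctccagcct
PAX7 start: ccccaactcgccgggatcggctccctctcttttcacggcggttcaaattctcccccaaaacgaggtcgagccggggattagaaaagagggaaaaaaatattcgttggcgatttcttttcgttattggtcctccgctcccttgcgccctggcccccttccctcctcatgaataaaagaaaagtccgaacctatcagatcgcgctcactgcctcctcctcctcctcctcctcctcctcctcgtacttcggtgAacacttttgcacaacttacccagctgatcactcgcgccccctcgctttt
Both windows held 21 CG pairs, against a median of 14 over 35116 RefSeq promoter windows of this length, and 64.7% (PAX3) and 54.3% (PAX7) of their bases were G or C, against a median of 58.7%. Neither window contained a TCF/LEF word, CTTTG followed by a pair of bases that are each A or T, on either strand, which 13.8% of all windows did. Neither contained the octamer ATGCAAAT, the word bound by OCT4-type factors, on either strand, which 1.77% of all windows did. The windows say nothing of the peaks themselves, which lie elsewhere and whose coordinates below are those of the lists, in hg19.

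The highest peak of the pair in each list was at PAX7, at the site both lists share. In CHIR+SB its single peak (chr1:18972892-18973692, 800 bp wide) held 59 β-catenin reads (exact 95% Poisson interval 44.9 to 76.1) and 14 IgG reads. In CHIR the first of its 2 peaks (chr1:18972968-18973448, 480 bp) held 44 reads (32.0 to 59.1) and 8 IgG reads. In CHIR the second (chr1:18978250-18978530, 280 bp) held 28 reads (18.6 to 40.5) and 4 IgG reads. All 3 lay inside the transcript the authors assigned, NM_002584, which spans 105 kb. The CHIR+SB peak was centred 15.8 kb downstream of the TSS, and the CHIR peaks 15.7 and 20.9 kb. Whether these positions are exonic or intronic was not analysed here. Such intervals cover counting error alone, and reads from amplified libraries are not independent molecules.

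After the authors' scaling for depth, the PAX7 signal was 33.2 in CHIR+SB, and 16.9 and 10.8 at the CHIR peaks. This put the CHIR+SB peak at rank 29 of 1813, shared with 1 other peak of 59 reads, and the CHIR peaks at ranks 259 and 618 of 1053. The deposited ratio of normalized β-catenin to IgG signal was 6.02 in CHIR+SB (exact 95% interval 3.32 to 11.7), and 2.99 (1.39 to 7.36) and 3.81 (1.33 to 14.9) at the CHIR peaks. The intervals of all 3 overlap. The median ratio over all peaks was 4.29 in CHIR+SB and 4.66 in CHIR, so the PAX7 peak was above the median of its list in CHIR+SB and both PAX7 peaks were below it in CHIR. The IgG signal itself was 5.51 in CHIR+SB and 5.65 in CHIR at the site both lists share, counted over 800 and 480 bp, so the 2 values are not for equal widths.

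**Figure D1:**
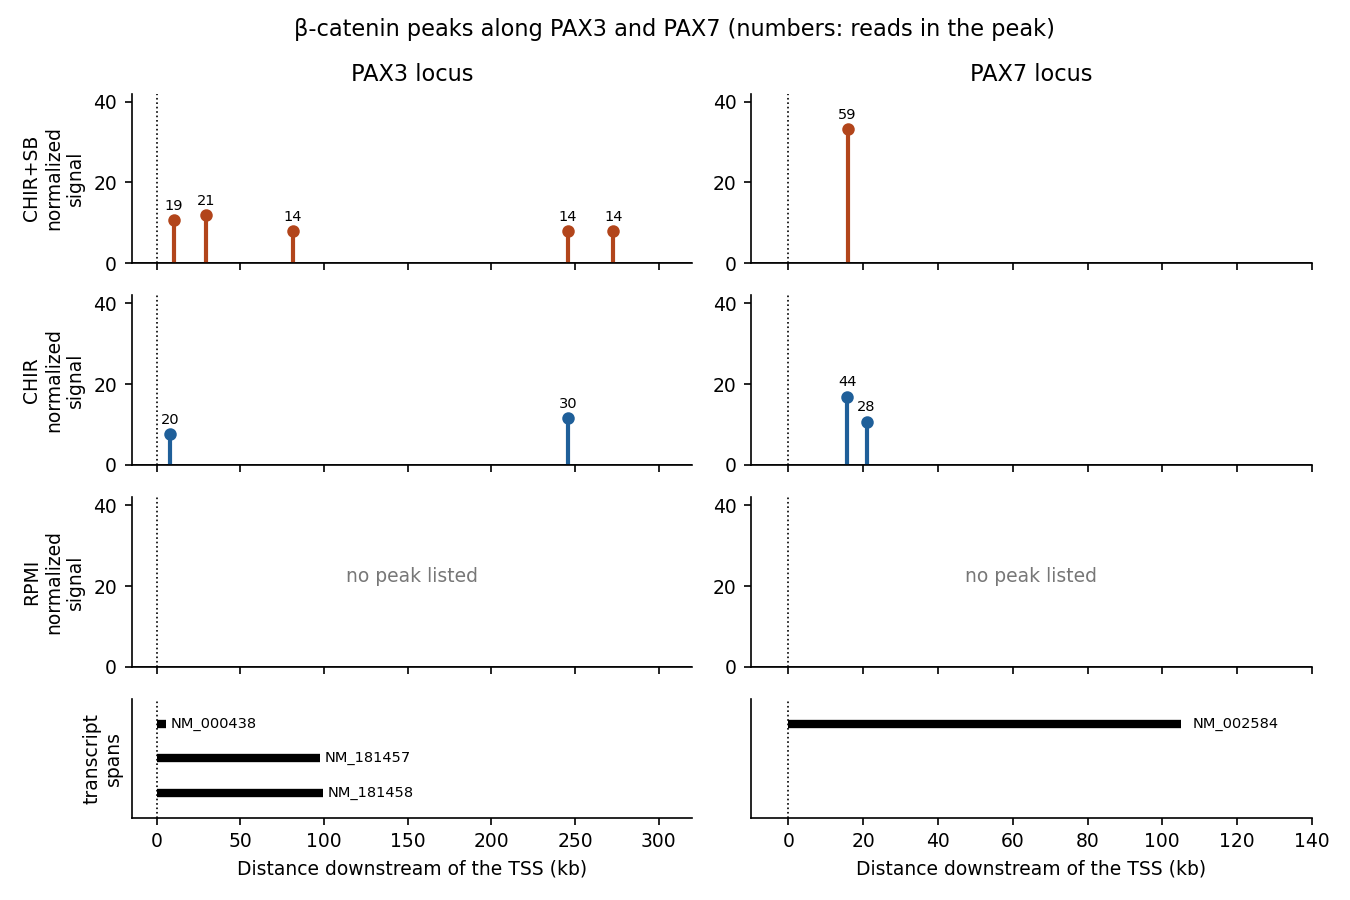
Normalized β-catenin signal of each PAX3 (left) and PAX7 (right) peak against its distance downstream of the TSS in kb, with the CHIR+SB, CHIR and RPMI lists in rows and the spans of the transcripts named in the lists as black bars. Each stem is 1 peak and the number over it is its reads. PAX3 peaks run from 8.02 to 273 kb, beyond the end of the gene, the PAX7 peaks lie within 20.9 kb, and the RPMI rows are empty.

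The shared PAX7 site had the higher signal in CHIR+SB. Its normalized signal there was 1.96 times that in CHIR (exact 95% interval from the reads of both libraries, 1.31 to 2.97). Among the 642 pairs of CHIR+SB and CHIR peaks that overlapped one-to-one, this was the 18th highest ratio, and the median was 1.00. The interval lay above 1 at 43 of the 642 pairs, 6.70%, with PAX7 among them, and below 1 at 27, 4.21%. The peak was also 1.67 times as wide in CHIR+SB, and each library was counted within its own boundaries. Per base of peak the ratio was 1.18 (0.784 to 1.78, with the called widths taken as fixed), the 150th highest of the 642, where the median was 1.01. The higher value in CHIR+SB thus went with a wider peak, and per base the interval includes 1.

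PAX3 had more peaks, all of them lower than the highest PAX7 peak. In CHIR+SB the 2 highest lay 10.1 kb (chr2:223153485-223153734) and 29.6 kb (chr2:223133897-223134254) downstream of the TSS. They held 19 reads (exact 95% Poisson interval 11.4 to 29.7) with 2 IgG reads, and 21 reads (13.0 to 32.1) with 7 IgG reads. The other 3 CHIR+SB peaks held 14 reads each (7.65 to 23.5). They lay at 81.2 kb (chr2:223082472-223082584), with 3 IgG reads, at 246 kb (chr2:222917798-222917984), with 6, and at 273 kb (chr2:222890786-222890913), with 3. These 3 are close to the lowest peaks of their list: 433 peaks had 14 reads, 1374 had more and 6 had fewer.

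In CHIR, PAX3 had 2 peaks. The higher, with 30 reads (exact 95% Poisson interval 20.2 to 42.8) and 4 IgG reads, lay 246 kb downstream of the TSS (chr2:222917633-222918058). The lower, with 20 reads (12.2 to 30.9) and 2 IgG reads, lay at 8.02 kb (chr2:223155621-223155779), and 20 reads was the minimum of the CHIR list. PAX3 signal was 10.7, 11.8, 7.88, 7.88 and 7.88 in CHIR+SB, from the TSS outward, and 7.68 and 11.5 in CHIR. Summed over the peaks, PAX3 had 82 reads over 1031 bp in CHIR+SB and 50 reads over 583 bp in CHIR, with 21 and 6 IgG reads. The sum follows how many peaks were listed. Per kb of peak the signal was 44.7 in CHIR+SB and 32.9 in CHIR. At single peaks it ran from 33.1 at 29.6 kb to 70.3 at 81.2 kb in CHIR+SB, and was 48.6 and 27.1 in CHIR. The narrowest peaks had the highest values, so this measure follows peak width.

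**Figure D2:**
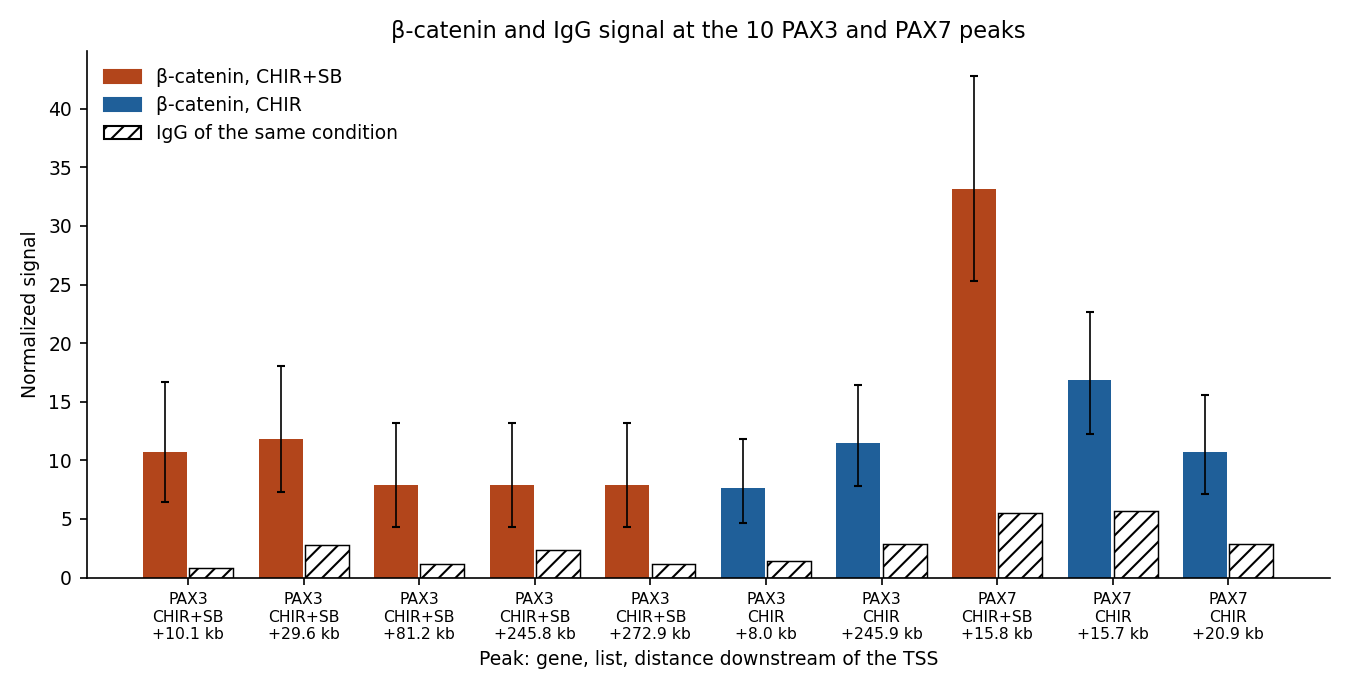
Normalized signal of β-catenin (filled bars, with exact 95% Poisson intervals of the read count) and of IgG of the same condition (hatched bars) at each of the 10 peaks, named by gene, list and distance from the TSS. β-catenin exceeds IgG at each peak, by 2.99 times at the first PAX7 peak in CHIR to 13.6 times at the PAX3 peak 10.1 kb from the TSS in CHIR+SB.

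Over the 10 peaks the β-catenin to IgG ratio ran from 2.99 to 13.6, on 2 to 14 IgG reads. Each exact interval lay above 1, the lowest bound being 1.20, at the CHIR+SB peak of PAX3 at 246 kb. The highest ratio, at the PAX3 peak 10.1 kb from the TSS in CHIR+SB, rests on 2 IgG reads and has an interval of 3.27 to 120.2. Peaks were listed by the authors for standing over background, so these ratios are part of how they were chosen.

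Of the 7 PAX3 peaks the lists call 6 downstream of the gene and 1 within it. This label follows the transcript chosen for each peak. The lists name 3 PAX3 transcripts with the same TSS, NM_000438 spanning 5.37 kb, NM_181457 spanning 97.3 kb and NM_181458 spanning 99.1 kb. For 3 of the peaks called downstream the authors used the short NM_000438, and these lie inside the span of NM_181458: the CHIR+SB peaks at 10.1 and 29.6 kb and the CHIR peak at 8.02 kb. By the longest transcript, 4 PAX3 peaks were within the gene and 3 beyond its end. Those 3, at 246 kb in both lists and at 273 kb in CHIR+SB, lay 147 to 174 kb past the end of NM_181458. EPHA4, which encodes an ephrin receptor, is the next protein-coding gene on that side in RefSeq, and no peak was assigned to it in any list.

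Both loci held few other peaks. Within 500 kb of the PAX3 TSS every peak of the 3 lists was assigned to PAX3. The nearest peaks of other genes lay 1.32 Mb upstream (SCG2, a secretogranin gene) and 2.33 Mb downstream (MIR4268, a microRNA gene) in both CHIR+SB and CHIR. Within 500 kb of the PAX7 TSS there was 1 further peak, assigned to KLHDC7A, the next gene upstream. It held 21 reads and 6 IgG reads in CHIR+SB, 73.0 kb upstream of the PAX7 TSS and 77.1 kb from that of KLHDC7A (chr1:18884335-18884716), and CHIR had none there.

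The 10 peaks fall at 8 separate sites, 6 at PAX3 and 2 at PAX7, when peaks that overlap by at least 1 bp count as 1 site. CHIR+SB and CHIR shared 2 sites, 1 at each gene. A further 4 sites, all at PAX3, were listed in CHIR+SB and not in CHIR, and 2, 1 at each gene, in CHIR and not in CHIR+SB. In CHIR+SB 2 of the 6 peaks had a CHIR partner (33.3%), where 36.6% of the whole list did. In CHIR 2 of the 4 had a CHIR+SB partner, where 63.3% of the whole list did. With so few peaks, these shares are near those of the whole lists.

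The shared PAX3 site is the one 246 kb from the TSS. The CHIR+SB peak there, 186 bp wide, lay wholly inside the CHIR peak of 425 bp and covered 43.8% of it. Its signal was 7.88 in CHIR+SB and 11.5 in CHIR, a ratio of 0.684 (exact 95% interval 0.335 to 1.33), the 571st highest of the 642 pairs. Per base of peak the ratio was 1.56 (0.765 to 3.04, again with the called widths taken as fixed), the 54th highest. That rank itself depends on the widths, the CHIR+SB peak being 0.438 times as wide. The direction thus turned with the width, and both intervals include 1, so no difference was detectable at this depth.

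**Figure D3:**
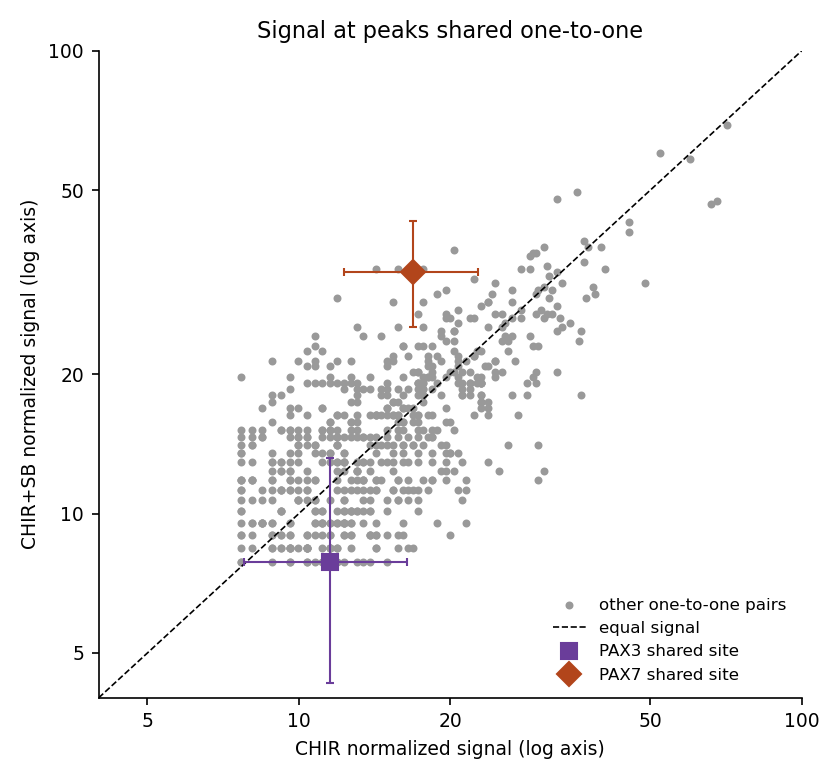
CHIR+SB against CHIR normalized signal (log axes) at the 642 pairs of peaks that overlap one-to-one, with the shared PAX3 and PAX7 sites marked and the dashed line at equal signal. Bars are exact 95% Poisson intervals of the read counts. PAX7 lies above the line, at 33.2 in CHIR+SB and 16.9 in CHIR, and PAX3 below it, at 7.88 and 11.5, with an interval that reaches the line.

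The sites listed in 1 treatment ranged from the lowest peaks of their list to above its middle. Of the 4 in CHIR+SB, those at 29.6 and 10.1 kb, with 21 and 19 reads, were above the list median of 17, and those with 14 reads were below it. Those in CHIR, with 28 and 20 reads, were below the list median of 31. The nearest pair without overlap was at PAX3, where the CHIR+SB peak at 10.1 kb and the CHIR peak at 8.02 kb were 1887 bp apart. The second CHIR peak of PAX7 began 4558 bp beyond the end of the CHIR+SB peak. The CHIR+SB peaks of PAX3 at 29.6, 81.2 and 273 kb were 21.4, 73.0 and 26.7 kb from the nearest CHIR peak. A CHIR+SB peak of 14 reads has a signal that corresponds to 20.5 CHIR reads, next to the CHIR minimum of 20. Those of 19 and 21 reads correspond to 27.8 and 30.8 CHIR reads. The CHIR peaks of 28 and 20 reads correspond to 19.1 and 13.7 CHIR+SB reads, where the CHIR+SB minimum was 12. In CHIR+SB, 20 of the 433 peaks with 14 reads overlapped a CHIR peak (4.62%, exact 95% interval 2.84 to 7.04%). Of the 82 peaks with 19 reads 24 did (29.3%), and of the 62 with 21 reads 33 did (53.2%). In the other direction, 22 of 80 CHIR peaks with 20 reads overlapped a CHIR+SB peak (27.5%), and 18 of 41 with 28 reads (43.9%). At the read counts of the shared sites, 2 of 2 CHIR+SB peaks with 59 reads had a CHIR partner (exact 95% interval 15.8 to 100%). In CHIR 9 of 12 with 44 reads (75.0%) and 23 of 34 with 30 reads (67.6%) had a CHIR+SB partner. Each of these shares, and those above, counts the PAX3 or PAX7 peaks with those reads, so none is an independent background. The shared PAX3 peak in CHIR+SB was among the 20 of 433 with 14 reads.

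RPMI had no peak at either gene. The RPMI peaks nearest to those of PAX3 and PAX7 were 2.53 Mb away or more on chromosome 2 and 0.945 Mb or more on chromosome 1. None of the 10 peaks overlapped an RPMI peak, which was also true of 91.2% of all CHIR+SB peaks and 83.0% of all CHIR peaks. The lowest RPMI peak had 15 reads. At the signal seen with the inhibitors, the RPMI library would have given 51.8 reads at the CHIR+SB peak of PAX7, and 26.4 and 16.8 at its CHIR peaks. At PAX3 it would have given 16.7, 18.4 and, at the 3 lowest peaks, 12.3 reads for the CHIR+SB peaks, and 12.0 and 18.0 for the CHIR peaks. So 4 of the 10, all at PAX3, would have been below the lowest RPMI peak, and a lower level in RPMI was not detectable there at this depth. By these point values the other 6 would have been above it, the CHIR+SB peak of PAX7 by the widest margin. Counting error is not included in them. The values of 16.7, 16.8, 18.0 and 18.4 reads are close to the minimum of 15, so absence from the RPMI list says little at those peaks.

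**Figure D4:**
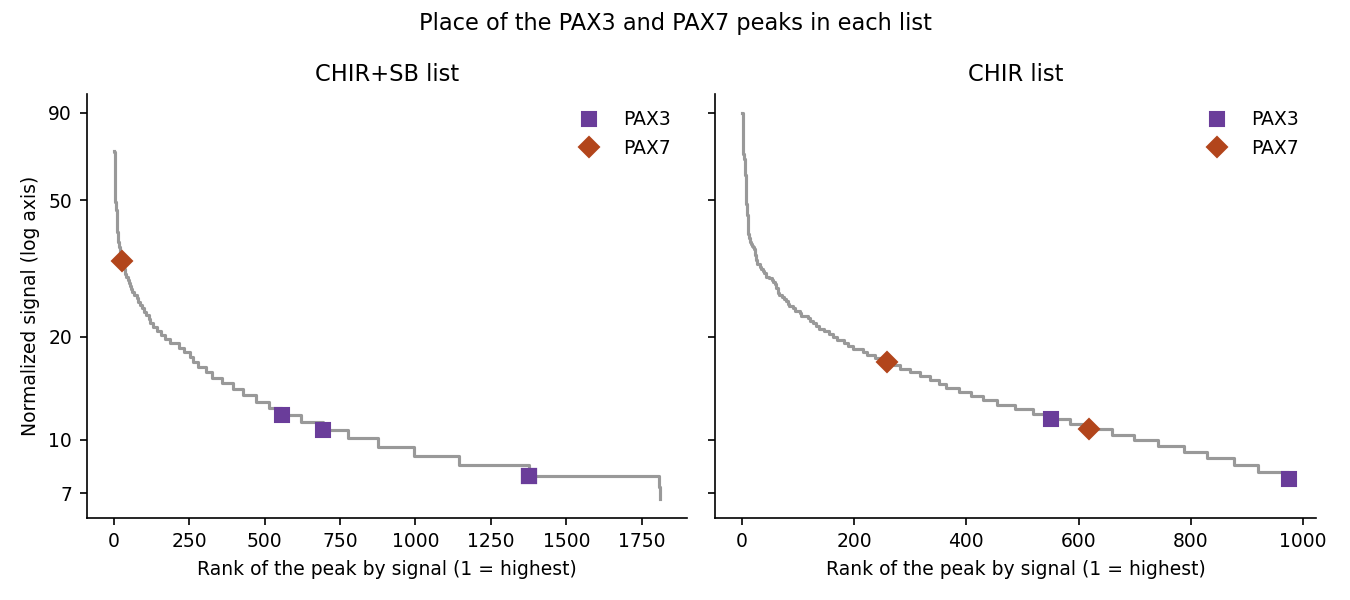
Normalized signal (log axis) of every peak against its rank in the CHIR+SB list (left) and in the CHIR list (right), with PAX3 peaks as squares and PAX7 peaks as diamonds. The CHIR+SB peak of PAX7 sits at rank 29 of 1813, while 3 PAX3 peaks of that list share rank 1375 and the lowest PAX3 peak in CHIR shares rank 974 of 1053.

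Other genes of the neural plate border were near peaks in the same lists. In a list of 32 transcription factor genes of the border and early neural crest, PAX3 and PAX7 included, 8 had a peak within 50 kb of the TSS in CHIR+SB, 8 in CHIR and 0 in RPMI. Of all 20052 protein-coding genes in RefSeq, 3.72% had one in CHIR+SB, 2.68% in CHIR and 0.888% in RPMI. GBX2, MSX1, MSX2 and ID3 shared with PAX3 and PAX7 a peak within 50 kb in both treatments and none in RPMI, as did 1.19% of protein-coding genes. ETS1 and TWIST1 were near a peak in CHIR+SB, and MYC and ZIC4 in CHIR. The list was drawn up with results of these data known, so its counts are a description.

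After PAX7, the homeobox genes MSX1 and GBX2 had the highest peaks of the list in CHIR+SB, and in CHIR both were above PAX7. GBX2, which patterns the anterior hindbrain, had 48 reads and 23 IgG reads in CHIR+SB and 81 reads and 11 IgG reads in CHIR at its highest peak, 8.44 kb downstream of the TSS. MSX1, which acts at the border with PAX3, had 50 reads and 15 IgG reads in CHIR+SB and 60 reads and 5 IgG reads in CHIR, 2.73 kb upstream (CHIR+SB) and 2.74 kb upstream (CHIR). Signal in CHIR+SB was 0.868 times that in CHIR at this GBX2 peak (exact 95% interval 0.594 to 1.26), 1.02 times at the second GBX2 peak (0.636 to 1.61) and 1.22 times at MSX1 (0.822 to 1.81). Each interval includes 1, unlike that of PAX7 before peak width is taken into account. Per base of peak the ratio was 1.18 at both MSX1 and PAX7, and there the PAX7 interval also included 1. It was 0.794 at the highest GBX2 peak and 0.892 at the second. The difference between PAX7 and these genes was not tested.

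ID3, an inhibitor of bHLH factors, had a shared peak of 17 reads in CHIR+SB and 33 in CHIR, a ratio of 0.755 (exact 95% interval 0.394 to 1.39). Per base of peak the ID3 ratio was 1.88, so its direction turned with the peak width. MSX2, a relative of MSX1, had 14 reads 31.2 kb upstream in CHIR+SB and 28 reads 3.36 kb upstream in CHIR, at sites that do not overlap, like the PAX3 sites within 50 kb. ETS1 had 15 reads at 13.8 kb and TWIST1 19 reads at 11.6 kb in CHIR+SB, while MYC had 31 reads at 7.002 kb and ZIC4 26 reads at 26.3 kb in CHIR. These single-list peaks were all within the range of the PAX3 and PAX7 peaks.

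**Figure D5:**
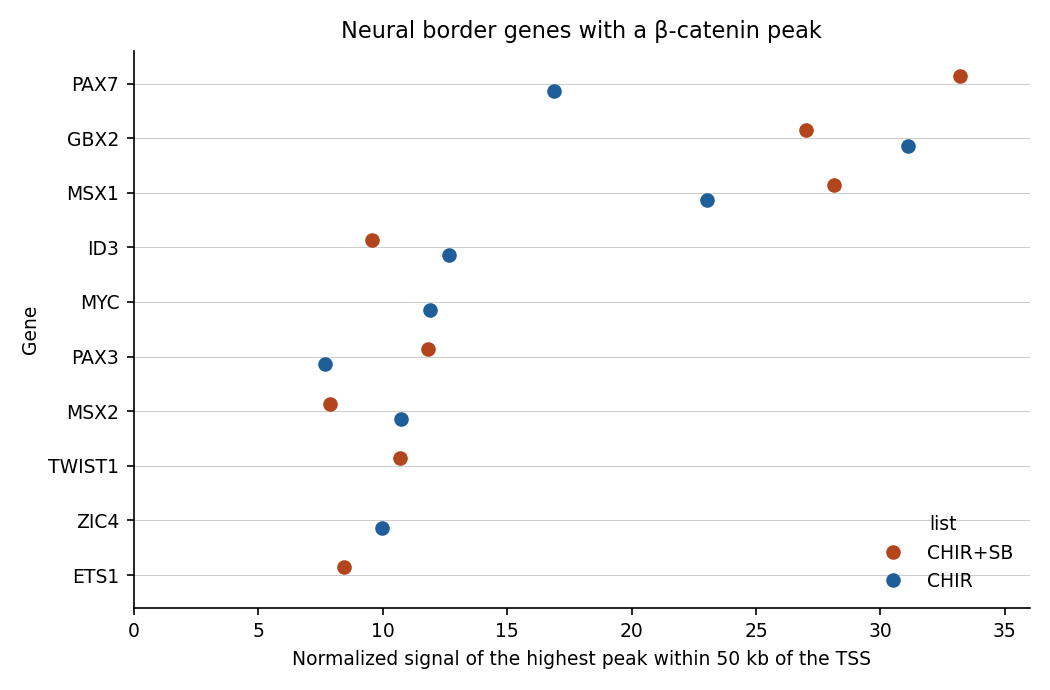
Normalized signal of the highest peak within 50 kb of the TSS for each of the neural border genes that had one, in CHIR+SB and in CHIR. PAX7 is highest in CHIR+SB at 33.2 and GBX2 in CHIR at 31.1, and PAX3 is at 11.8 in CHIR+SB and 7.68 in CHIR.

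Of the 9 human PAX genes, 4 had a peak within 50 kb of the TSS in CHIR+SB (PAX2, PAX3, PAX5 and PAX7). In CHIR 3 had one (PAX2, PAX3 and PAX7) and in RPMI 0. Over all protein-coding genes the shares were 3.72%, 2.68% and 0.888%. PAX3 and PAX7 are among the 9 and were picked with these lists known, so the counts are a description. PAX2, a gene of kidney, eye and midbrain development, had a shared site with 18 reads in CHIR+SB and 20 in CHIR (ratio 1.32, exact 95% interval 0.658 to 2.62), 2.98 kb upstream of the TSS. Per base of peak the PAX2 ratio was 0.510, so its direction turned with the peak width. In CHIR PAX2 had a higher peak of 28 reads 21.8 kb upstream. PAX5, a B-cell factor, had 14 reads 1.58 kb upstream in CHIR+SB. The shared PAX7 peak was above all of these in both lists.

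In CHIR+SB, 7 of 1511 genes with a peak had 5 or more, and PAX3 was one, with AXIN2, MYO3B, LPHN2, PRKG1-AS1, FOXB1 and ZNF608. This count rests on its 3 peaks of 14 reads, and without peaks under a signal of 9.61 PAX3 had 2. In CHIR, PAX3 and PAX7 were among 89 of 928 genes with 2 or more peaks. The genes whose summed signal over the 3 lists was most like that of PAX3, by Euclidean distance of log2(signal + 1) among 1840 genes, were FHIT (46.1 for PAX3 against 47.3 in CHIR+SB, 19.2 for both in CHIR), SEMA3E, TEAD1, PRKG1-AS1 and ZFHX3. Those most like PAX7 were HAO2, MIXL1, LINC00443, UBE2D2 and IMPG1, of which MIXL1, a homeobox gene of mesendoderm, had 33.8 in CHIR+SB and 28.8 in CHIR, where PAX7 had 33.2 and 27.6. All 10 had no RPMI peak, and the measure rests on 3 libraries.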

How the data were processed

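The authors deposited 1 peak list for each of the 3 β-catenin libraries, with whole read counts of the β-catenin and IgG libraries in each peak, both in normalized form, their ratio, and the gene assigned to the peak, per the file headers. The deposited normalized signal is the count times 1 factor per library. Per the submitters' processing notes Bowtie was the aligner, and hg19 and mm9 are the builds named. The peak caller, its thresholds, versions and total depths: not given in the sources used here. Transcript positions in the lists are those of hg19.

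Decimal commas were read as points. Peaks were taken by gene name, overlap was 1 bp or more, and ratios of signals have exact 95% conditional binomial (Clopper-Pearson) intervals. Overlap and intervals were tested on simulated data. Gene names and promoter windows are from RefSeq (GRCh38.p14), with older symbols matched where unique. Peak sequences, exons and IgG peaks were not analysed here. Python 3.11.15, pandas 2.3.3 and scipy 1.17.1 were used.

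The members and lists were chosen with earlier results of these data known. Named were all PAX3 and PAX7 peaks, genes of the neural border and PAX lists with a peak within 50 kb, by their highest peak, the 5 genes nearest in pattern to each gene, and genes of other peaks within 500 kb. Outside this rule, second peaks of GBX2 and PAX2, nearest peaks of other genes, the next gene EPHA4 and genes with 5 or more peaks were named after their values were seen. Alternatives changed the signal minimum, distance, overlap and scaling.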

Additional observations from a re-analysis of the deposited data

How the results depend on the processing

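With the highest of the list minimums, a signal of 9.61, applied to each list, PAX3 kept 2 peaks in CHIR+SB and 1 in CHIR, the lists shared 1 site (PAX7), and 5 neural border genes were near a CHIR+SB peak. Above the median signal of each list PAX3 had 2 peaks in CHIR+SB and 0 in CHIR, and PAX7 had 1 in CHIR. Within 50 kb PAX3 had 2 peaks in CHIR+SB and 1 in CHIR. Within 500 kb of the PAX7 TSS, whatever gene was assigned, CHIR+SB had 2 peaks. When the overlap had to cover most of both peaks (at least 0.5 of each), 1 site was shared, again PAX7. Per base of peak the CHIR+SB to CHIR ratio was 1.18 at PAX7 and 1.56 at PAX3, while raw reads gave 1.34 and 0.467, and signal minus IgG 2.46 and 0.634. Within 10 kb, 3 neural border genes and 2 PAX genes were near a CHIR+SB peak. Of 50 alternative values 35 stayed within 1.5 times the reported count or within the interval of the ratio. The 35 include every RPMI count, all of them 0, which most of the alternatives could not have raised. Each list rests on 1 library. No paired analysis was possible because each condition had 1 library of each kind and no result came from a test.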
